A study of Mus musculus with 6 samples.

Results

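The 44 genes described here encode the digestive enzymes, membrane proteins and proton pump of the lysosome, with the transcription factor genes Tfeb and Tfe3. They were chosen by gene symbol from a list, 44 of 56691 genes in the deposited table, and each symbol had 1 row. RNA was sequenced from mouse bone marrow cells that M-CSF, a macrophage growth factor, had turned into macrophages and that were sorted after growth beside mEC25, which the labels call a cancer cell line. The macrophages of 3 libraries had touched the mEC25 cells (contact), and for the other 3 the cells were cultured together without contact, across a transwell (transwell). Both groups shared the M-CSF treatment and the presence of mEC25, and macrophages grown alone were not analysed here. The labels give no mouse strain or age. Nor do they tie replicates to separate animals or cultures, so the spread behind each p-value may be technical.

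The lysosome is an acidic compartment in which macrophages break down what they engulf. Its hydrolases cut sugars, lipids and proteins, and most of them need the low pH that the V-ATPase makes by pumping protons with the energy of ATP. The V-ATPase has a membrane part, V0, through which protons pass, and a cytosolic part, V1, that splits ATP. Tfeb and Tfe3 are transcription factors known to bind CLEAR elements, a motif around the letters CACGTG in promoters of many lysosomal genes, when they move to the nucleus. Their activity is known to be set largely by phosphorylation and location, which RNA levels do not show.

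Promoters that hold this motif are shown first, because Tfeb and Tfe3 are members of the list and the motif links them to the genes. RefSeq promoters on GRCm38.p6, from 250 bases before to 50 after the start, were found for 37 of the 44 genes. The letters CACGTG, which read the same on both strands, occurred in promoters of 11 of these 37 genes (29.7%), and of 8.09% of 27025 genes with a promoter in the same table. The longer form TCACGTGA, which contains CACGTG, occurred in 5 (13.5%, against 1.12%), and the same with G before and C after it in Cln3 (2.7%, against 0.37%). The stretches of the 5 genes with the longer form, and of Lamp1 with 4 copies of the short form, follow in the 5′ to 3′ direction of each gene, with the motif in capitals.
Gla, chrX:134601183-134601243, minus strand: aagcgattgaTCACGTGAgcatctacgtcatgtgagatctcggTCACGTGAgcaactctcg
Atp6v0d1, chr8:105566051-105566078, minus strand: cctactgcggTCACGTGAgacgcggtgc
Atp6v1a, chr16:44139374-44139401, minus strand: tttttttaaaTCACGTGAtaggcttaac
Cln3, chr7:126583340-126583395, minus strand: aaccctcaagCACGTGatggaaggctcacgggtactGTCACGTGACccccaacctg
Mcoln1, chr8:3500438-3500490, plus strand: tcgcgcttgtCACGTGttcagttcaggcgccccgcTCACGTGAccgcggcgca
Lamp1, chr8:13159090-13159161, plus strand: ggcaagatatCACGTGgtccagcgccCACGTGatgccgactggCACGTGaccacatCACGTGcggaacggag
The other holders of CACGTG were Arsa, Atp6v0b, Glb1, Naglu and Sgsh. A match describes the letters and is not a bound site.

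The contact libraries held 20911880 to 22563835 counts and the transwell libraries 18173192 to 18895818. The 44 genes took 2.97% to 3.27% of the counts of a library. Mitochondrial genes took 1.74% to 1.82% of counts in contact and 0.923% to 1.25% in transwell libraries, and 21668 to 22523 genes were detected in contact against 19862 to 20146 in transwell libraries. Total counts, mitochondrial share and genes detected each did not overlap between the groups. The contact libraries were also the deeper ones, so the gap in genes detected cannot be told apart from depth. All 15 macrophage markers had a mean of at least 1 FPKM in both groups. Their summed level was 16602 to 18427 FPKM in contact and 17731 to 18894 FPKM in transwell libraries. Lyz2 made up most of it, with 11412 to 13076 FPKM in contact and 12817 to 13785 FPKM in transwell libraries, so the sum says little of the others. In contact 4 markers were called higher, among them Cd14 (2.81-fold), and 6 lower, among them Fcgr1 (3.75-fold) and Adgre1 (2.30-fold). FPKM is the read count scaled to exonic length and to the library total, as the authors deposited it. Of 28 epithelial markers, 19 reached a mean of 1 FPKM in contact and 1 in transwell libraries. Their summed level was 1127, 1700 and 964 FPKM in contact replicates 1 to 3 and 5.39 to 5.77 FPKM in transwell libraries, where Krt15, Cldn4, Dsg3 and Grhl2 had no count, and 20 of 21 tested were called higher in contact. The defining osteoclast gene Calcr was at 0 in transwell libraries and at 0, 0 and 0.01 FPKM in contact replicates 1 to 3. Osteoclast markers summed to 103 to 119 FPKM in contact and 143 to 166 FPKM in transwell libraries. Mmp9 made up most of that sum and fell, with Ctsk, Nfatc1 and Itgb3, while Ocstamp (7.82-fold), Dcstamp (3.21-fold) and Car2 (2.55-fold) rose. Summed levels in contact and in transwell libraries were 11.5 to 26.8 and 3.59 to 8.16 FPKM for 10 fibroblast markers, 838 to 1203 and 527 to 1183 FPKM for 10 neutrophil markers, 5.78 to 7.56 and 2.73 to 3.85 FPKM for 10 lymphocyte markers, and 2.06 to 3.38 and 2.31 to 4.39 FPKM for 7 dendritic cell markers. Most of the neutrophil sum came from S100a8 and S100a9, which were not called, while Mpo (6.12-fold), Elane (6.85-fold), Retnlg (7.44-fold) and Csf3r (1.64-fold) rose and no neutrophil marker fell. Of the tested fibroblast, lymphocyte and dendritic cell markers, 6 of 8, 1 of 2 and 0 of 2 rose, and none fell. The part that these markers, the total counts, the mitochondrial share or the number of genes detected had in the changes of lysosomal genes was not tested.

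The 44 lysosomal genes changed by less than 2-fold between the groups, and nearly all that were called were lower in contact. All 44 were abundant enough to be tested with edgeR's quasi-likelihood test, in which a gene is called at a Benjamini-Hochberg adjusted p under 0.05 over 14113 genes. Of the 44, 18 fell, 1 rose and 25 were not called. Over all genes tested 16.1% were called lower and 21.4% higher (37.5% either way). Among the 6507 genes with a mean of at least 5 FPKM, a level that 43 of the 44 reached and that was chosen after their values were seen, 24.5% were lower and 15.5% higher (40% either way). The median log2 change, contact minus transwell, was -0.18 over the 44 and 0.03 over all genes. Over the 6507 genes with a mean of at least 5 FPKM it was -0.05, so these also leaned lower. The changes ran from -0.88 for Atp6v0a1 to 0.46 for Galc, so none reached 2-fold, and 2 of the 44 reached 1.5-fold. Of the 6507 genes with a mean of at least 5 FPKM, 5.19% reached 2-fold and 13.2% reached 1.5-fold. With the sign left out, the median log2 change was 0.20 over the 44 and 0.21 over those genes. The groups did not overlap for 24 of the 44 in scaled counts, where 50.4% of all genes tested did the same.

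The log2 changes come from counts scaled by TMM, a method that allows for differences in RNA composition. FPKM rests on library totals alone, so FPKM ratios lie higher than these changes. Scaled by library totals, the median of all genes moved up by 0.12 (log2), and 3 members were called higher and 11 lower. Over all genes the split was then 3945 higher and 1450 lower, where TMM gave 3016 and 2270. Relative to the median of all genes, the median of the 44 was -0.20 with both scalings. This was fixed in advance, because a change of scaling shifts all genes nearly alike, so it does not show which scaling is right. In bulk RNA, fewer macrophages in the sorted cells and less RNA of a gene per macrophage cannot be told apart.

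**Figure D1:**
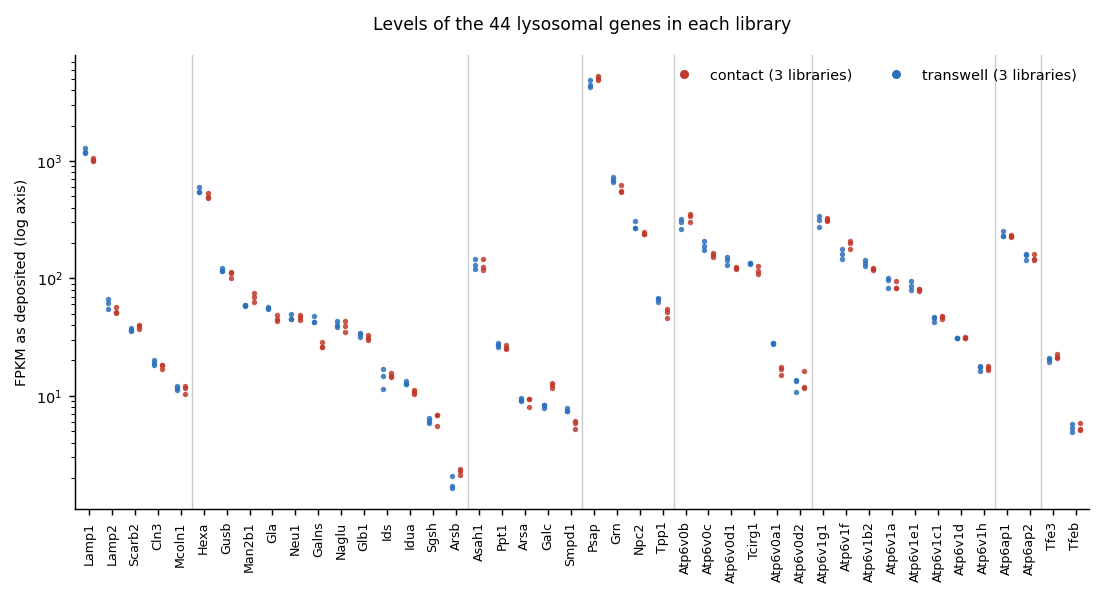
FPKM on a log axis for each of the 44 genes in the 3 transwell (blue) and 3 contact (red) libraries, with grey lines between roles in the order membrane proteins, glycan hydrolases, lipid hydrolases, cofactors and peptidase, V0, V1, accessory proteins and regulators. Psap lies highest, Arsb lowest, and the groups are clearly apart for Galns, Galc and Atp6v0a1.

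Levels spanned a wide range, and their order was much the same in both groups. Psap, the precursor of the saposins that help lipid hydrolases reach their substrates, was highest, with a mean of 5104 ± 203 FPKM over contact and 4520 ± 332 FPKM over transwell libraries (SD, n = 3 each). Lamp1 followed at 1024 ± 33.1 and 1218 ± 58.5 FPKM, then Grn at 573 ± 38.8 and 693 ± 39.9 FPKM and Hexa at 504 ± 27.4 and 561 ± 32.0 FPKM. These neighbours in the order lay further apart than their spread. Atp6v0b (331 ± 25.1 FPKM) and Atp6v1g1 (317 ± 10.5 FPKM), next in contact libraries, did not. Tfeb (5.44 ± 0.416 and 5.34 ± 0.390 FPKM), Smpd1 and Arsb were at the low end, Arsb at 2.26 ± 0.147 and 1.81 ± 0.238 FPKM. The exonic length behind FPKM was 1.0 to 4.76 times the longest coding transcript in GENCODE M21, with Atp6v1h and Galc (3.88) among the largest ratios, so levels of such genes are understated against the others.

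Of the 5 membrane proteins 3 fell and none rose, with a median log2 change of -0.23. That was a called share of 60%, where of all genes tested 16.1% were lower and 21.4% higher. Lamp1, the most abundant protein of the lysosomal membrane, stood at 1057, 1022 and 991 FPKM in contact and at 1284, 1172 and 1199 FPKM in transwell libraries. Every contact library lay under every transwell library, and Lamp1 fell by 0.37 on the log2 scale (SE 0.07, edgeR adjusted p = 0.00246). Its relative Lamp2, which also serves chaperone-mediated autophagy, had 51.9, 50.4 and 57.3 FPKM in contact and 55.0, 66.9 and 61.4 FPKM in transwell libraries. Those ranges overlap, while the scaled counts do not, and the log2 change was -0.31 ± 0.09 (SE, edgeR adjusted p = 0.0176). Cln3, a membrane protein lost in a childhood neurodegenerative disease, had 18.2, 16.9 and 18.1 FPKM in contact and 20.1, 18.2 and 19.2 FPKM in transwell libraries (log2 change -0.23 ± 0.08, edgeR adjusted p = 0.0433). The calcium channel gene Mcoln1 (-0.15) and Scarb2, the gene of the membrane protein LIMP-2 (-0.02), were not called.

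The Lamp1 call held under all 16 alternatives. The Lamp2 call ended without contact replicate 1 (-0.30) or 2 (-0.27) or transwell replicate 3 (-0.31), and that of Cln3 without contact replicate 1 (-0.25), 2 (-0.18) or 3 (-0.24) or transwell replicate 1 (-0.18) or 3 (-0.23). Both ended on library totals (-0.20 and -0.11), and that of Cln3 also under upper-quartile scaling (-0.20) and among genes with a mean of at least 1 FPKM (-0.19). Over the 44 members, replicate 1 most often had the highest scaled count of its group, for 28 in contact and 29 in transwell libraries, and replicate 2 most often the lowest, for 27 and 29. Of all genes tested, replicate 1 was highest for 29.1% and 39.3%, and replicate 2 lowest for 32.4% and 35.7%.

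Of the 12 glycan hydrolases, which remove sugars or sulfate groups from glycosaminoglycans, glycoproteins and glycolipids, 5 fell and none rose, with a median log2 change of -0.19. Their called share of 41.7% was near the 37.5% of all genes tested, of which 16.1% were lower and 21.4% higher. Galns (ENSMUSG00000015027, protein-coding, chromosome 8, 122578242 to 122611463 on GRCm38) removes sulfate from keratan sulfate and chondroitin sulfate. It had 26.3, 25.8 and 28.5 FPKM in contact and 47.4, 42.5 and 42.3 FPKM in transwell libraries. The groups were far apart, and Galns was 1.78-fold lower in contact (log2 change -0.83 ± 0.08, edgeR adjusted p = 4.75e-05).

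Gla, the α-galactosidase that trims glycolipids, had 44.8, 43.0 and 48.6 FPKM in contact and 57.0, 54.8 and 55.8 FPKM in transwell libraries, a change of -0.41 ± 0.07 (edgeR adjusted p = 0.00185). Idua, which frees iduronic acid from heparan and dermatan sulfate, had 11.2, 10.4 and 10.8 FPKM in contact and 12.6, 12.6 and 13.4 FPKM in transwell libraries (-0.37 ± 0.08, edgeR adjusted p = 0.00485). Neither gene's groups overlapped, and the calls of Galns, Gla and Idua held under all 16 alternatives. Hexa, a subunit of the enzyme that degrades GM2 ganglioside, had 536, 484 and 493 FPKM in contact and 597, 539 and 546 FPKM in transwell libraries (-0.27 ± 0.08, edgeR adjusted p = 0.0201). Its call ended without contact replicate 2 (-0.23) or 3 (-0.26) or transwell replicate 3 (-0.29). That of Gusb, the β-glucuronidase gene (-0.24), ended without contact replicate 2 (-0.19) or transwell replicate 1 (-0.20) or 3 (-0.26). Both ended under library totals (-0.15 and -0.13) and upper-quartile scaling (-0.24 and -0.22), and that of Gusb among genes with a mean of at least 1 FPKM (-0.21).

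The 7 glycan hydrolases that were not called ran from Glb1, the acid β-galactosidase gene (-0.21, edgeR adjusted p = 0.051, called lower by DESeq2), to Arsb (0.20), of whose exonic bases 39.9% overlap other genes. Between them lay Naglu (-0.17), Neu1, a sialidase gene (-0.12), Ids (-0.06), Sgsh (-0.06) and Man2b1, an α-mannosidase gene (0.11). Man2b1 was called higher on library totals (0.23), and its FPKM were 75.1, 63.3 and 69.1 in contact and 59.3, 59.5 and 58.3 in transwell libraries. Heparan sulfate enzymes thus did not move as a block, since Idua and Gusb fell and Ids, Naglu and Sgsh were not called.

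Of the 5 lipid hydrolases 1 rose, 1 fell and 3 were not called, with a median log2 change of -0.18 (-0.10 without contact replicate 2). Their called share of 40% was near the 37.5% of all genes tested. Galc (ENSMUSG00000021003, protein-coding, chromosome 12, 98202294 to 98259459 on GRCm38), which splits galactosylceramide and is known for its loss in Krabbe disease, was the single member that rose. It had 12.3, 11.7 and 13.0 FPKM in contact and 7.87, 8.39 and 8.42 FPKM in transwell libraries. Every contact library lay above every transwell library, and Galc was 1.38-fold higher (log2 change 0.46 ± 0.07, edgeR adjusted p = 8.13e-04).

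Smpd1, the acid sphingomyelinase gene, had 5.84, 6.16 and 5.26 FPKM in contact and 7.95, 7.47 and 7.42 FPKM in transwell libraries. It fell by 0.52 on the log2 scale (SE 0.09, edgeR adjusted p = 0.00181), and both calls held under all 16 alternatives. Arsa, which removes sulfate from sulfatide (-0.18), Asah1, the acid ceramidase gene (-0.15), and Ppt1, which removes fatty acids from proteins (-0.19), were not called. Galc and Arsa act in sequence on myelin-type lipids, and their log2 changes were 0.46 ± 0.07 and -0.18 ± 0.09.

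Of the 4 soluble cofactors and peptidase genes 3 fell and none rose, with a median log2 change of -0.36. That was a called share of 75%, where of all genes tested 16.1% were lower and 21.4% higher. Tpp1, a tripeptidyl peptidase gene, had 51.5, 45.6 and 55.2 FPKM in contact and 63.4, 68.2 and 67.1 FPKM in transwell libraries (-0.50 ± 0.08, edgeR adjusted p = 0.00133). Grn, the gene of progranulin, had 618, 556 and 547 FPKM in contact and 735, 656 and 689 FPKM in transwell libraries (-0.39 ± 0.08, edgeR adjusted p = 0.00381). Npc2, which hands cholesterol to the membrane protein Npc1, had 248, 240 and 238 FPKM in contact and 305, 266 and 269 FPKM in transwell libraries (-0.32 ± 0.08, edgeR adjusted p = 0.00802). In all 3 genes the groups were apart, and the Npc2 call alone ended under an alternative, limma on FPKM with either pseudocount (-0.20 and -0.21).

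Psap was not called (0.06 ± 0.08, edgeR adjusted p = 0.599), with a 95% interval of -0.12 to 0.24. Its deposited FPKM of 5303, 4897 and 5112 in contact nevertheless all lay above the 4882, 4229 and 4448 in transwell libraries. Psap alone took 1.16% to 1.46% of all counts of a library.

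**Figure D2:**
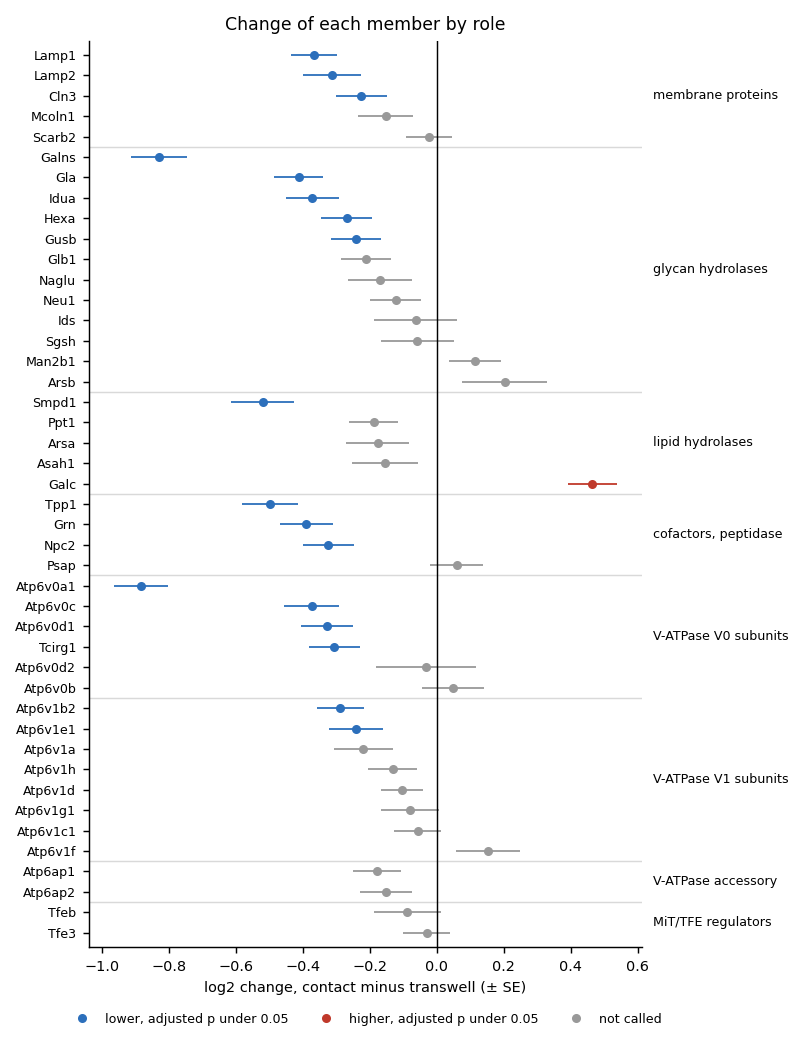
Log2 change from transwell to contact with its standard error for each of the 44 genes, by role, from edgeR on TMM-scaled counts of 3 against 3 libraries. Blue points fell, the single red point (Galc) rose and grey points were not called; Atp6v0a1 (-0.88) and Galns (-0.83) lie farthest to the left.

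Of the 16 genes of the V-ATPase and its accessory proteins 6 fell, none rose and 10 were not called. Their called share of 37.5% was that of all genes tested. All 6 calls were lower, while of all genes tested 16.1% were called lower and 21.4% higher. Among genes with a mean of at least 5 FPKM these shares were 24.5% and 15.5%. Their median log2 change was -0.16, beside -0.18 for the 17 glycan and lipid hydrolases, of which 6 fell and 1 rose. The difference between hydrolases and pump was not tested. Within the pump the 6 V0 genes had a median of -0.32 with 4 lower, and the 8 V1 genes a median of -0.12 with 2 lower. Without transwell replicate 2 both medians moved, to -0.39 for V0 and -0.19 for V1. The called shares were 66.7% for V0 and 25% for V1, against 37.5% of all genes tested.

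Atp6v0a1 (ENSMUSG00000019302, protein-coding, chromosome 11, 101009452 to 101063719 on GRCm38) encodes one of the alternative a subunits that line the proton path of V0. It had 17.6, 15.1 and 17.0 FPKM in contact and 28.4, 28.4 and 27.8 FPKM in transwell libraries. Of the 44 genes it had the largest change, 1.84-fold lower in contact (log2 change -0.88 ± 0.08, edgeR adjusted p = 2.56e-05), with groups far apart. Tcirg1, the a subunit gene known from osteoclasts and lysosomes, had 128, 110 and 117 FPKM in contact and 136, 133 and 136 FPKM in transwell libraries (-0.31 ± 0.08, edgeR adjusted p = 0.0106). The Tcirg1 call ended on library totals (-0.19).

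The a subunit genes thus changed unequally. Of the summed FPKM of Atp6v0a1, Atp6v0a2 and Tcirg1, the share of Atp6v0a1 was 11.5%, 11.4% and 11.98% in contact and 16.4%, 16.6% and 16.0% in transwell libraries. The share of Tcirg1 was 83.4%, 83.1% and 82.2% in contact and 78.3%, 77.6% and 78.4% in transwell libraries. For both shares the groups were apart by more than the spread within them, with means of 11.6 ± 0.314% against 16.3 ± 0.308% (SD, n = 3) for Atp6v0a1. These shares do not depend on the scaling of libraries. Atp6v0a2 itself fell (-0.42 ± 0.08, edgeR adjusted p = 0.00311), and Atp6v0a4, an a subunit of kidney, was near 0 (0.0133 FPKM in contact).

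The d subunit, which couples V0 to the rotor, also has alternative genes. Atp6v0d1, used by most cells, had 124, 121 and 121 FPKM in contact and 151, 130 and 143 FPKM in transwell libraries (-0.33 ± 0.08, edgeR adjusted p = 0.00854). Atp6v0d2, known from osteoclasts and macrophages, had 11.9, 11.6 and 16.4 FPKM in contact and 10.7, 13.4 and 13.6 FPKM in transwell libraries. Its groups overlapped, and it was not called (-0.03 ± 0.15, edgeR adjusted p = 0.888; 95% interval -0.37 to 0.30). It was the most variable member among contact libraries. The share of Atp6v0d2 in the summed FPKM of both d genes was 9.80 ± 1.84% in contact and 8.22 ± 1.43% in transwell libraries, a gap of 1.58 points, or 0.52 points without contact replicate 3.

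**Figure D3:**
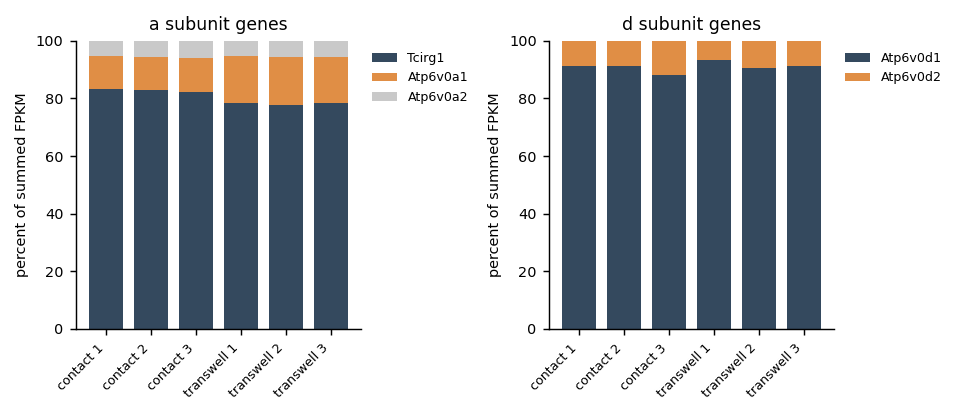
Share of each gene in the summed FPKM of the a subunit genes (left) and d subunit genes (right) of the V-ATPase in the 6 libraries. Atp6v0a1 takes about 11 to 12% in contact and 16 to 17% in transwell libraries, while the share of Atp6v0d2 overlaps between the groups.

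The proteolipid ring of V0 is built from products of Atp6v0c and Atp6v0b. Atp6v0c had 164, 153 and 157 FPKM in contact and 206, 173 and 187 FPKM in transwell libraries, and it fell (-0.37 ± 0.08, edgeR adjusted p = 0.00582). Atp6v0b was not called (0.05), so the ring genes did not fall together. A pseudogene copy of Atp6v0c had 0.498% of the counts of Atp6v0c, and no source used here says how reads shared with it were counted. The calls of Atp6v0a1, Atp6v0d1 and Atp6v0c held under all 16 alternatives.

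In V1, Atp6v1b2, the B subunit gene of the ATP-splitting head, had 121, 120 and 117 FPKM in contact and 142, 128 and 134 FPKM in transwell libraries (-0.29 ± 0.07, edgeR adjusted p = 0.00923). Its call ended on library totals (-0.17). The gene of its partner, the catalytic A subunit Atp6v1a, was not called (-0.22 ± 0.09, edgeR adjusted p = 0.0788), and was called lower without contact replicate 3 (-0.29) or transwell replicate 1 (-0.29), by DESeq2 (-0.23) and without a filter (-0.25). Atp6v1e1, a stalk subunit gene, had 81.2, 80.8 and 77.6 FPKM in contact and 94.7, 80.1 and 86.6 FPKM in transwell libraries, and its change of -0.24 ± 0.08 (edgeR adjusted p = 0.0376) was called. That call ended without contact replicate 1 (-0.26), 2 (-0.24) or 3 (-0.22), without transwell replicate 1 (-0.17) or 3 (-0.25), on library totals (-0.12), under upper-quartile scaling (-0.22) and among genes with a mean of at least 1 FPKM (-0.21).

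The rotor subunit genes Atp6v1d (-0.10) and Atp6v1f (0.15), the stalk gene Atp6v1g1 (-0.08), Atp6v1c1 (-0.06) and Atp6v1h (-0.13) were not called. Atp6v1f was called higher on library totals (0.27). Atp6v1d was steady, with 31.2 to 31.5 FPKM in contact and 30.9 to 31.3 FPKM in transwell libraries. The accessory genes Atp6ap1 (-0.18 ± 0.07, edgeR adjusted p = 0.0735) and Atp6ap2, the (pro)renin receptor gene (-0.15 ± 0.08, edgeR adjusted p = 0.162), were not called either.

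Neither regulator gene was called. Tfeb had 5.92, 5.26 and 5.15 FPKM in contact and 5.72, 4.94 and 5.35 FPKM in transwell libraries, with overlapping groups and a log2 change of -0.09 ± 0.10 (edgeR adjusted p = 0.529; 95% interval -0.31 to 0.13). Tfe3 had 22.5, 21.2 and 20.9 FPKM in contact and 20.8, 19.5 and 20.6 FPKM in transwell libraries, which are just apart, while scaled counts overlapped and the change was -0.03 ± 0.07 (edgeR adjusted p = 0.773; 95% interval -0.19 to 0.13). Both intervals exclude a change of 1.5-fold. On library totals the median of the 2 genes was 0.06, so even the direction turned with the scaling. Their relatives Mitf (8.24 ± 1.27 against 7.39 ± 1.09 FPKM) and Tfec (9.16 ± 0.0929 against 7.39 ± 0.383 FPKM) were not called, with log2 changes of 0.04 and 0.20, though Tfec was called higher on library totals (0.31) and among genes with a mean of at least 1 FPKM (0.23).

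Median changes of genes with and without the CACGTG letters shown above lay close together. Of the 11 genes with the letters in the promoter window 4 fell (Lamp1, Cln3, Gla and Atp6v0d1) and none rose, with a median log2 change of -0.21. Of the 26 without, 12 fell and 1 rose, with a median of -0.18. Of the 5 with TCACGTGA, Gla (-0.41), Atp6v0d1 (-0.33) and Cln3 (-0.23) fell, and Mcoln1 (-0.15) and Atp6v1a (-0.22) were not called. Atp6v0a1 and Galc, with changes of -0.88 and 0.46, had no CACGTG in their windows, and Galns was among 7 members with no promoter in the table.

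Lysosomal genes outside the list that were called were also mostly lower in contact. Of 25 other hydrolases and cofactors 15 fell and none rose (median -0.27). Of 28 other lysosomal membrane proteins 15 fell and 2 rose (median -0.33). The called shares of these lists were 60% and 60.7%, where of all genes tested 16.1% were lower and 21.4% higher. Slc11a1, the metal transporter NRAMP1 of macrophage phagosomes, had 204, 183 and 220 FPKM in contact and 340, 320 and 325 FPKM in transwell libraries (-0.81 ± 0.08, edgeR adjusted p = 5.66e-05). Tpcn1, a channel gene, fell (-0.76 ± 0.09), and Laptm4b rose (1.23 ± 0.18, edgeR adjusted p = 5.98e-04). Laptm4b had 6.72, 8.02 and 5.39 FPKM in contact and 2.38, 2.39 and 3.17 FPKM in transwell libraries. Whether epithelial RNA had a part in its rise was not tested.

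Of 16 genes of mannose 6-phosphate sorting, the route by which hydrolases reach the lysosome, 10 fell, none rose and 6 were not called (median -0.26). That was a called share of 62.5%, where of all genes tested 16.1% were lower and 21.4% higher. Sort1, the gene of the sorting receptor sortilin, had 17.0, 15.9 and 17.9 FPKM in contact and 28.6, 27.6 and 25.8 FPKM in transwell libraries (-0.81 ± 0.08, edgeR adjusted p = 3.92e-05). Ap1b1, an adaptor subunit gene (-0.60 ± 0.08), and Nagpa, which uncovers the mannose 6-phosphate tag (-0.55 ± 0.09), fell too.

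Of 19 tested genes of MiT/TFE and mTORC1 control 5 fell and 1 rose (median -0.15). That was a called share of 31.6%, below the 37.5% of all genes tested, of which 16.1% were lower and 21.4% higher. The kinase gene Mtor fell (3.12 ± 0.203 against 4.31 ± 0.333 FPKM, log2 change -0.58 ± 0.10, edgeR adjusted p = 0.00101). Lamtor1, a subunit gene of the complex that holds mTORC1 at the lysosome, fell as well (-0.48 ± 0.09). Rragd, the RagD GTPase gene, rose, with 1.95, 1.84 and 2.2 FPKM in contact and 1.25, 1.27 and 1.28 FPKM in transwell libraries (0.54 ± 0.13, edgeR adjusted p = 0.00937).

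Of 28 autophagy genes 10 were called lower and 3 higher (median -0.07). The called share was 46.4%, where of all genes tested 16.1% were lower and 21.4% higher. Plekhm1, which links autophagosomes to lysosomes (-0.70 ± 0.08), and Atg7 (-0.42 ± 0.08) fell. Map1lc3a rose, with 18.2, 17.3 and 14.4 FPKM in contact and 9.28, 7.22 and 8.75 FPKM in transwell libraries (0.87 ± 0.14, edgeR adjusted p = 7.84e-04). Of 14 tested genes of other V-ATPase subunits and assembly factors, 2 fell and none rose (median -0.12), namely Atp6v0a2 and Atp6v0e (-0.31 ± 0.09, edgeR adjusted p = 0.0219). The called share of this list was 14.3%, against 37.5% of all genes tested. The Atp6v0e call ended without contact replicate 1 (-0.31), 2 (-0.33) or 3 (-0.29) or transwell replicate 3 (-0.32), on library totals (-0.19) and under upper-quartile scaling (-0.28).

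**Figure D4:**
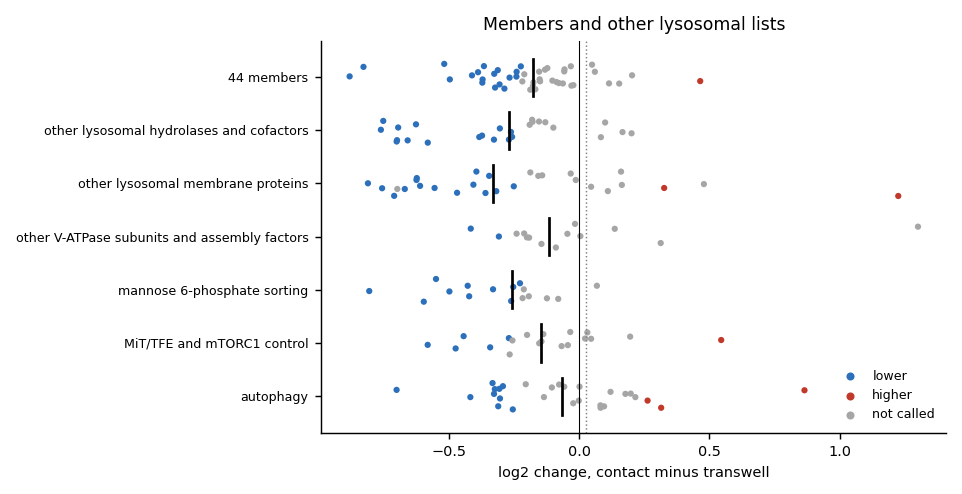
Log2 change from transwell to contact of each tested gene of the 44 members and of 6 other lists, with blue for lower, red for higher and grey for not called, a black bar at each median and a dotted line at the median of all genes tested (0.03). Each list's median lies left of that line, from -0.07 for autophagy to -0.33 for other lysosomal membrane proteins. Genes with a mean of at least 5 FPKM, not drawn, had a median of -0.05, close to that of autophagy.

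**Figure D5:**
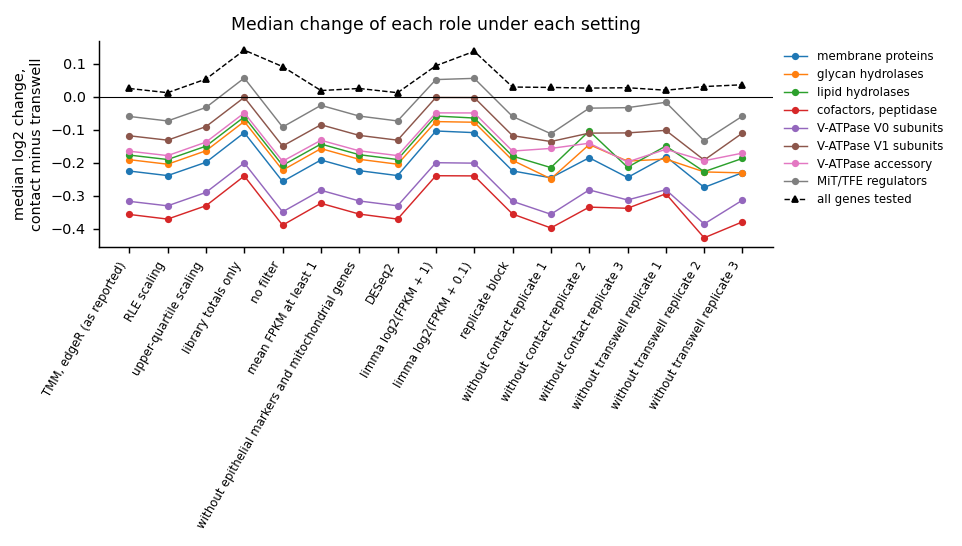
Median log2 change of each role and of all genes tested under the reported setting and 16 alternatives; lines only join the points of a role. Scaling by library totals, and limma on FPKM, moved all medians up together, and the regulators to 0.05 or 0.06.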

How the data were processed

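The authors deposited read counts per Ensembl gene for 6 libraries, and FPKM values beside them, per the file headers. Of values with a count above 100, 99.93% of the FPKM lay within 1% of the value computed from count, exonic length and library total. GRCm38 and mm10 are named in the submitters' processing notes. No source used here names the aligner, counter, annotation or strand setting, and 14 of the 44 genes share exonic bases with another gene (over 10% for Arsb, Sgsh, Arsa, Hexa and Atp6v0b). Of 52073 gene IDs shared with GENCODE M21, 1472 had its start and end, so positions come from GENCODE M21 by ID and promoters from RefSeq.

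Counts were filtered (filterByExpr, minimum count 10), scaled by TMM and tested two-sided with edgeR 4.0.16 (limma 3.58.1, DESeq2 1.42.0, R 4.3.3), adjusting over 14113 genes. Standard errors were derived from each change and its F statistic. Figures were drawn with matplotlib 3.10.9. The members and lists were chosen with earlier results of these data known, so lists have counts and medians and no test. Full values are given for up to 4 called members a role with the largest change and 8 fixed ones, and, of each other list, up to 3; some of the latter are not reported here. Mitf, Tfec and members that were not called are named for completeness. The test was tried on simulated counts. Alternatives were 3 scalings, 2 filters, markers left out, DESeq2, limma at pseudocounts of 1 and 0.1, a replicate block and each library left out. Lengths of the longest coding transcript were added for the shares after the data were seen. Replicates differed by more than sampling noise (chi-square per degree of freedom 5.90 to 22.8).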

Additional observations from a re-analysis of the deposited data

How the results depend on the processing

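Of the 18 calls lower and 1 higher, 10 and 1 held under all 16 alternatives, and 21 of the 25 members not called stayed so. Under upper-quartile scaling 14 members were lower, and with a filter at a mean of 1 FPKM 15. On library totals, on limma with log2(FPKM + 1) and on limma with log2(FPKM + 0.1), in this order, members higher numbered 3, 2 and 3 and members lower 11, 10 and 10. The median log2 changes were then -0.11, -0.10 and -0.11 for membrane proteins, -0.0747, -0.0751 and -0.0771 for glycan hydrolases, -0.0608, -0.0583 and -0.0642 for lipid hydrolases, and -0.24, -0.24 and -0.24 for cofactors and peptidase. For V0 they were -0.20, -0.20 and -0.20, for V1 -0.0015, -0.0019 and -0.0021, for accessory proteins -0.0488, -0.0486 and -0.0488, for regulators 0.0572, 0.0525 and 0.0562, and for all members -0.0615, -0.0597 and -0.0628. These settings use no composition factor, which shifts all genes alike. With each library left out, medians ran from -0.27 to -0.18 for membrane proteins, -0.25 to -0.14 for glycan hydrolases, -0.23 to -0.10 for lipid hydrolases, -0.43 to -0.29 for cofactors and peptidase, -0.39 to -0.28 for V0, -0.19 to -0.10 for V1, -0.20 to -0.14 for accessory proteins, -0.13 (without transwell replicate 2) to -0.02 (without transwell replicate 1) for regulators and -0.22 to -0.16 for all members, with 13 to 18 members lower and 1 higher. The gap in the Tcirg1 share of a subunit genes was 4.80 points, and 5.81 from CPM, which uses no gene length. For Atp6v0a1 it was -4.71 points, -5.84 from CPM and -5.02 with the longest coding transcript as length; without single libraries these gaps ran from 4.54 to 5.14 and from -4.89 to -4.57, and that of Atp6v0d2 from 0.52 to 2.17.

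The labels do not say whether replicate numbers pair the samples. Deviations of same-numbered libraries from their group means correlated at 0.103, -0.41 and 0.101, and those of other pairs at -0.414 to 0.344. Deviations within a group of 3 are tied to each other, so these values cannot settle it. With the replicate block 5124 genes were called, against 5286 without it, and 18 members were lower and 1 higher, as in the reported fit. With 3 libraries a group, the smallest called change of a member was -0.23 on the log2 scale.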
